A study of Mus musculus with 18 samples.

Results

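The transcripts of 10 genes, grouped by name as cholesterol efflux genes driven by liver X receptors, were followed in bone marrow-derived macrophages (BMDM) loaded with modified LDL. The group also includes genes with other or less settled roles in lipid handling. The genes were *Nr1h2*, *Nr1h3*, *Abca1*, *Abcg1*, *Abca9*, *Arl4c*, *Apoe*, *Apoc2*, *Pltp* and *Lpcat3*. They were chosen by name from the 31053 genes listed, with no measured value in the rule but with earlier results of these data known. All 10 were among the 12290 genes that passed the filter on low counts and were tested.

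Liver X receptors (LXR) are nuclear receptors that bind DNA together with the retinoid X receptor (RXR) and are switched on by oxysterols and by late intermediates of cholesterol synthesis. In cholesterol-laden macrophages they are known to raise the transcription of the lipid exporters ABCA1 and ABCG1 and of apolipoproteins that accept or carry the exported lipid. The same receptors also raise genes of fatty acid synthesis and of phospholipid remodelling. LDL that has been acetylated (Ac-LDL) or oxidized (Ox-LDL) enters macrophages through scavenger receptors and is the usual means of turning cultured macrophages into foam cells.

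The cells came from the bone marrow of 12-week-old mice on a C57Bl/6J background, 3 Slc7a7+/+ mice (wild type) and 3 Slc7a7-/- mice (knockout). *Slc7a7*, which encodes a subunit of a transporter of cationic and large neutral amino acids, was deleted with LysM-Cre, a recombinase made from a locus active in myeloid cells. Wells of 100000 cells then received vehicle (control), Ac-LDL at 50 µg/mL or Ox-LDL at 100 µg/mL for 24 h. Cells of each mouse received all 3 media, giving 18 libraries in 6 groups of 3 mice, which are numbered 1 to 3 within each genotype. The doses of the LDLs differed, and the wild type libraries carry the lower library numbers throughout.

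Total counts ranged from 1043492 to 1768816 per library, so that 3 counts, the most that a count of 0 allows, stood for 1.67 to 2.85 CPM. CPM express the count of a gene relative to the total of its library after TMM scaling, and this limit covers counting error only. All 10 macrophage markers examined were detected, with summed levels between 3950 and 7512 CPM. The lowest sums in the wild type groups were those of mouse 1, at 4842, 5128 and 3950 CPM in control, Ac-LDL and Ox-LDL. The macrophage sum was lower with Ox-LDL than in control in 6 of 6 mice, and in knockout cells it lay between 6401 and 7512 CPM in control and between 4682 and 5798 CPM after Ox-LDL. Summed neutrophil markers ranged from 25.6 to 252 CPM with *Retnlg* at 0 in every library. They lay between 72.9 and 126 CPM in wild type control cells and between 142 and 252 CPM with Ox-LDL, with no overlap, whereas the knockout groups overlapped there. The part of these marker lists in the Ox-LDL values given for the members was not tested. Across libraries, summed stromal markers from 0.949 to 35.8 CPM with *Lum* at 0, while each other list stayed at or below 5.20 CPM. The mean level of *Slc7a7* was lower in knockout than in wild type cells by 56.0% in control, 87.1% with Ac-LDL and 64.6% with Ox-LDL. Knockout libraries held only 3 to 17 counts of it. The exons of *Slc7a7* share 232 bases with *Oxa1l* on the opposite strand. The strand setting of the counting is not given in the sources used here, so that reads of these bases cannot be told apart. In bulk RNA, fewer cells of a type and less RNA per cell cannot be told apart.

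LXR and RXR together bind a pair of direct repeats spaced by 4 bases, which for *Abca1* lies just before the start of transcription. The promoter of *Abca1*, the exporter that rose 4.05-fold with Ac-LDL in wild type cells, is therefore shown. Its 250 bases before the RefSeq start (GRCm38.p6, chr4:53159896-53160145, minus strand) read as follows, 5′ to 3′ on the strand of the gene. Capitals mark both copies of the repeat without their first letter, which was left free in the search and is in lower case.

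Abca1 promoter: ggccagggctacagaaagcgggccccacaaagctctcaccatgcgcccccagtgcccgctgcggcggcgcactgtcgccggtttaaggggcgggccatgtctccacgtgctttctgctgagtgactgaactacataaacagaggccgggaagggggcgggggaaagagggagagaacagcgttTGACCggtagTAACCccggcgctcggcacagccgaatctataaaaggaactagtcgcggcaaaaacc

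The motif searched was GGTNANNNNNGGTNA or its reverse complement TNACCNNNNNTNACC, with the first letter of each repeat left free, in windows from 250 bases before to 50 bases after each RefSeq start. It was found in 0.718% of the 32851 windows in the reference table (236 windows), a share of windows, of which a gene can have several. Of the 9 members with a window, *Abca1* alone held the motif there, and *Abcg1* had no entry. Among 39 other genes of the pathway lists with a window, 3 held it, and these matches are shown beside that of *Abca1* because *Abca1* rose and *Fasn* fell with LDL. Capitals again mark the repeats without their free first letter.
Abca1: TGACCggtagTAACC
Fasn: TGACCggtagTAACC
Srebf1: TGACCgccagTAACC
Acsl3: TGACCcatagTAACC
The match began 67 bases before the start in *Abca1* (chr4:53159948-53159962, minus strand), 225 bases before it in *Fasn* (chr11:120824758-120824772, minus strand), 182 bases before it in *Srebf1* (chr11:60210639-60210653, minus strand, 1 of 3 windows) and 112 bases before it in *Acsl3* (chr1:78657713-78657727, plus strand). The 15 letters of *Abca1* and *Fasn* were identical. A match is a string of letters in a window and was not measured as bound, and sites outside the windows were not searched.

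Per kilobase of annotated exon, the members covered a wide range of levels in wild type control cells. *Apoe*, the apolipoprotein that macrophages secrete to accept cholesterol, stood highest at 377 ± 64.2 CPM per kb (mean ± SD, n = 3 mice). *Pltp*, a secreted phospholipid transfer protein, followed at 123.5 ± 59.9 CPM per kb, and both stood apart from each other and from the rest. *Arl4c* (23.0 ± 6.13), *Nr1h3* (18 ± 1.89), *Nr1h2* (16.98 ± 2.73), *Abca1* (11.9 ± 5.24), *Abcg1* (9.35 ± 3.56), *Lpcat3* (8.05 ± 0.223) and *Apoc2* (7.74 ± 5.73 CPM per kb) came next. Each of these overlapped its neighbour in the order between mice. *Abca9* was lowest, at 2.53 ± 1.31 CPM per kb, and its 3 libraries lay below those of *Apoc2*. With Ac-LDL in wild type cells, *Abca1* at 48.7 ± 1.39 CPM per kb stood above every member except *Apoe* and *Pltp*. In knockout cells with Ac-LDL, the libraries of *Abca1* overlapped those of *Arl4c* and *Abcg1*. Exon lengths were taken over all annotated transcripts, so that these levels depend on the annotation as well as on the RNA.

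**Figure D1:**
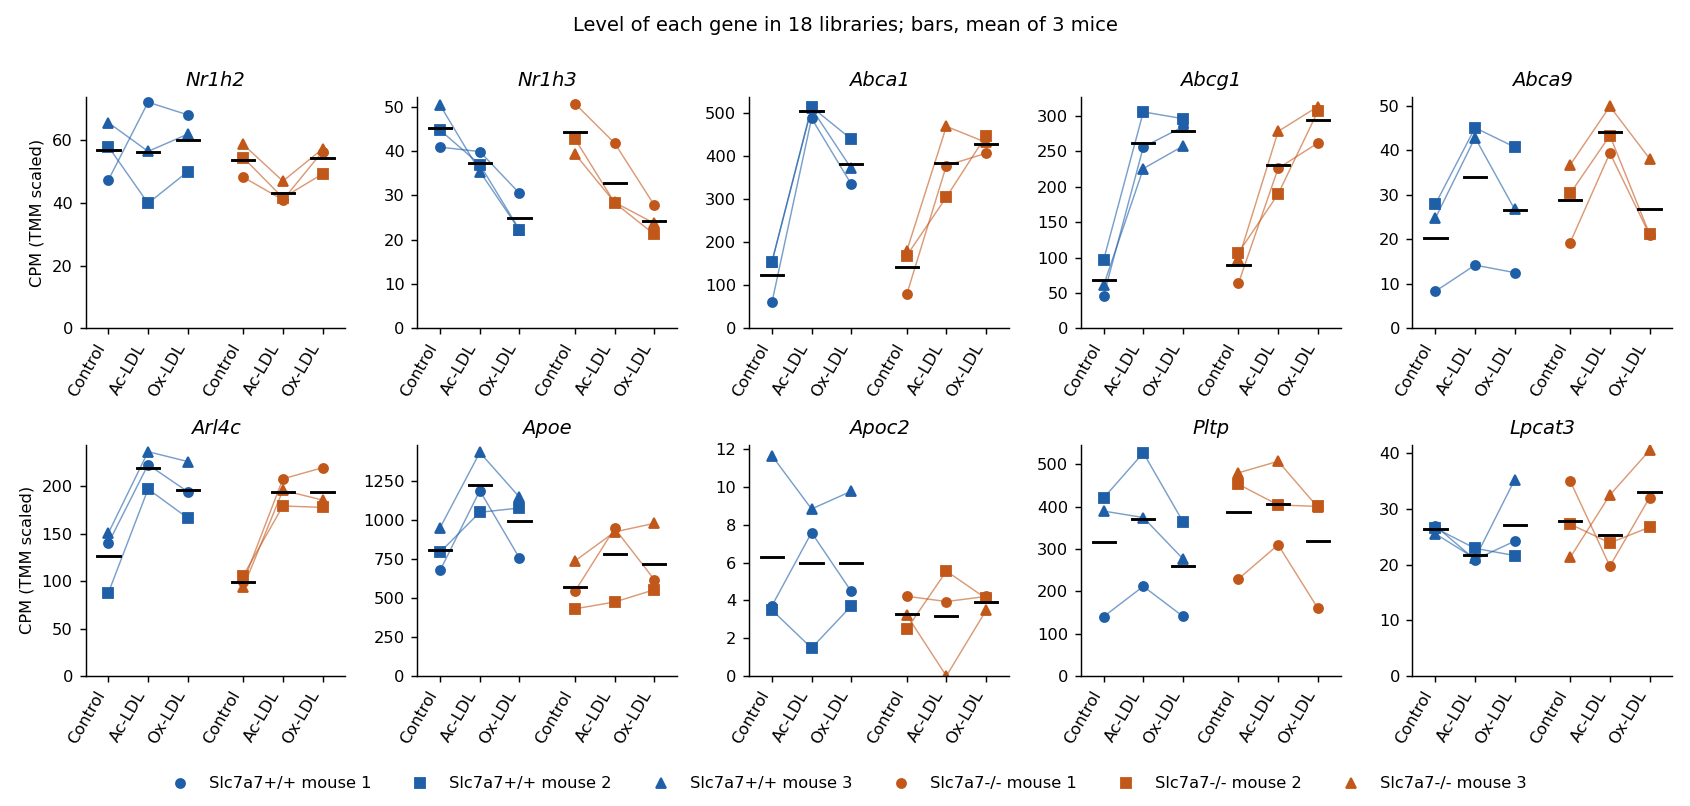
TMM-scaled CPM (linear axes from 0) of the 10 genes in the 18 libraries, Slc7a7+/+ in blue and Slc7a7-/- in orange, with lines joining the 3 media of each mouse and black bars at the group means. *Abca1*, *Abcg1* and *Arl4c* were higher with each LDL than in control in all 6 mice, and *Nr1h3* was lower with each LDL in all 6.

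The receptors differed from each other. *Nr1h3* (ENSMUSG00000002108, chromosome 2, 91184061 to 91202834, minus strand), which encodes LXR alpha, fell with Ox-LDL in both genotypes. Its level in wild type control cells was 40.8, 44.7 and 50.3 CPM in mice 1, 2 and 3. It was 39.9, 36.9 and 35.4 CPM after Ac-LDL and 30.5, 22.2 and 22.2 CPM after Ox-LDL. Every Ox-LDL library lay below every control and every Ac-LDL library of the same genotype. In knockout cells, it was 50.6, 42.7 and 39.3 CPM in control, 41.8, 28.3 and 28.4 CPM after Ac-LDL and 27.8, 21.2 and 23.7 CPM after Ox-LDL. The log2 fold change with Ox-LDL was −0.88 in wild type cells (SE 0.20, adjusted p = 0.0217, edgeR's quasi-likelihood test) and −0.88 in knockout cells (SE 0.20, adjusted p = 0.0138), a fall to 0.542 and 0.545 of control. The macrophage marker sum was lower with Ox-LDL in the same 6 mice, and its part in this fall was not tested.

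With Ac-LDL, *Nr1h3* had log2 fold changes of −0.29 (95% interval −0.68 to 0.11) in wild type and −0.45 (−0.84 to −0.06) in knockout cells and did not pass the threshold (adjusted p = 0.823 and 0.544 in edgeR). The call with Ox-LDL in wild type cells was lost without control replicates 2 or 3 or without Ox-LDL replicates 2 or 3 (adjusted p from 0.0787 to 0.123). In knockout cells the call was lost without control replicate 1 or Ox-LDL replicates 2 or 3 (adjusted p from 0.0833 to 0.105). These fits had no mouse block. With the mouse as a block and all libraries, *Nr1h3* passed with Ox-LDL in wild type (adjusted p = 0.00205, edgeR) and knockout cells (adjusted p = 0.0016). *Nr1h2* (ENSMUSG00000060601, chromosome 7, 44549616 to 44553951, minus strand), which encodes LXR beta, lay between 39.9 and 72.1 CPM in the 18 libraries. Its log2 fold changes with LDL ranged from −0.31 with Ac-LDL in knockout cells (95% interval −0.70 to 0.07) to 0.06 with Ox-LDL in wild type cells (−0.33 to 0.44), and it passed in no comparison.

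The cholesterol exporters *Abca1* and *Abcg1* rose with each LDL in each genotype. *Abca1* (ENSMUSG00000015243, chromosome 4, 53030787 to 53159895, minus strand) encodes the transporter that loads lipid onto lipid-poor apolipoprotein A-I. In wild type cells it was 60.3, 153.6 and 155.3 CPM in control, 488, 514 and 511 CPM after Ac-LDL and 335, 439.5 and 372 CPM after Ox-LDL. The corresponding levels in knockout cells were 79.0, 169 and 179.9 CPM in control, 378, 305 and 469 CPM after Ac-LDL and 407, 447 and 432 CPM after Ox-LDL. The lowest LDL library, at 305 CPM, lay above the highest control library, at 179.9 CPM. The log2 fold change in wild type cells was 2.02 (SE 0.26, adjusted p = 7.01e-05, edgeR) with Ac-LDL and 1.62 (SE 0.26, adjusted p = 0.000653) with Ox-LDL.

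In knockout cells, *Abca1* had log2 fold changes of 1.43 (SE 0.26, adjusted p = 0.0045, edgeR) with Ac-LDL and 1.59 (SE 0.26, adjusted p = 0.000547) with Ox-LDL. These stood for 4.05-fold, 3.07-fold, 2.70-fold and 3.01-fold the control level in the order given. The call with Ac-LDL in knockout cells was lost without Ac-LDL replicate 3 (1.27, adjusted p = 0.0565) and held in the other 24 alternatives. Control cells of mouse 1 held the least *Abca1* in each genotype. Without wild type control replicate 1, whose macrophage marker sum was also the lowest of its group, *Abca1* still rose by 1.72 with Ac-LDL and 1.32 with Ox-LDL.

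*Abcg1* (ENSMUSG00000024030, chromosome 17, 31057675 to 31117988, plus strand) encodes an exporter that passes sterol to mature HDL. It was 46.4, 97.0 and 61.2 CPM in wild type control cells, 256, 306 and 226 CPM after Ac-LDL and 285, 296 and 258 CPM after Ox-LDL. In the knockout groups it was 63.9, 107 and 98.0 CPM in control, 226, 189.9 and 278 CPM after Ac-LDL and 262, 307 and 313 CPM after Ox-LDL. No LDL library overlapped a control library. The log2 fold changes were 1.92 (SE 0.21, adjusted p = 4.4e-06, edgeR) and 2.01 (SE 0.21, adjusted p = 1.32e-06) with Ac-LDL and Ox-LDL in wild type cells. In knockout cells they were 1.37 (SE 0.20, adjusted p = 0.000469) and 1.72 (SE 0.20, adjusted p = 7.8e-06). *Abcg1* kept all 4 calls in each of 25 alternatives per comparison.

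*Abca9* (ENSMUSG00000041797, chromosome 11, 110100749 to 110168196, minus strand) belongs to the ABCA1 subfamily, and its transport substrate is less settled. It was 8.36, 27.9 and 24.8 CPM in wild type control cells, 14.2, 45.1 and 42.8 CPM after Ac-LDL and 12.5, 40.7 and 26.7 CPM after Ox-LDL. Knockout libraries gave 19.3, 30.3 and 36.7 CPM in control, 39.4, 43.3 and 49.9 CPM after Ac-LDL and 21.0, 21.2 and 38.2 CPM after Ox-LDL. Cells of mouse 1 held less than those of mice 2 and 3 in all 3 wild type groups, so that the groups overlapped although each mouse was higher with Ac-LDL. The log2 fold change with Ac-LDL was 0.73 (SE 0.41, adjusted p = 0.748, edgeR) in wild type and 0.63 (SE 0.36, adjusted p = 0.763) in knockout cells, and *Abca9* passed for neither LDL in that fit.

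**Figure D2:**
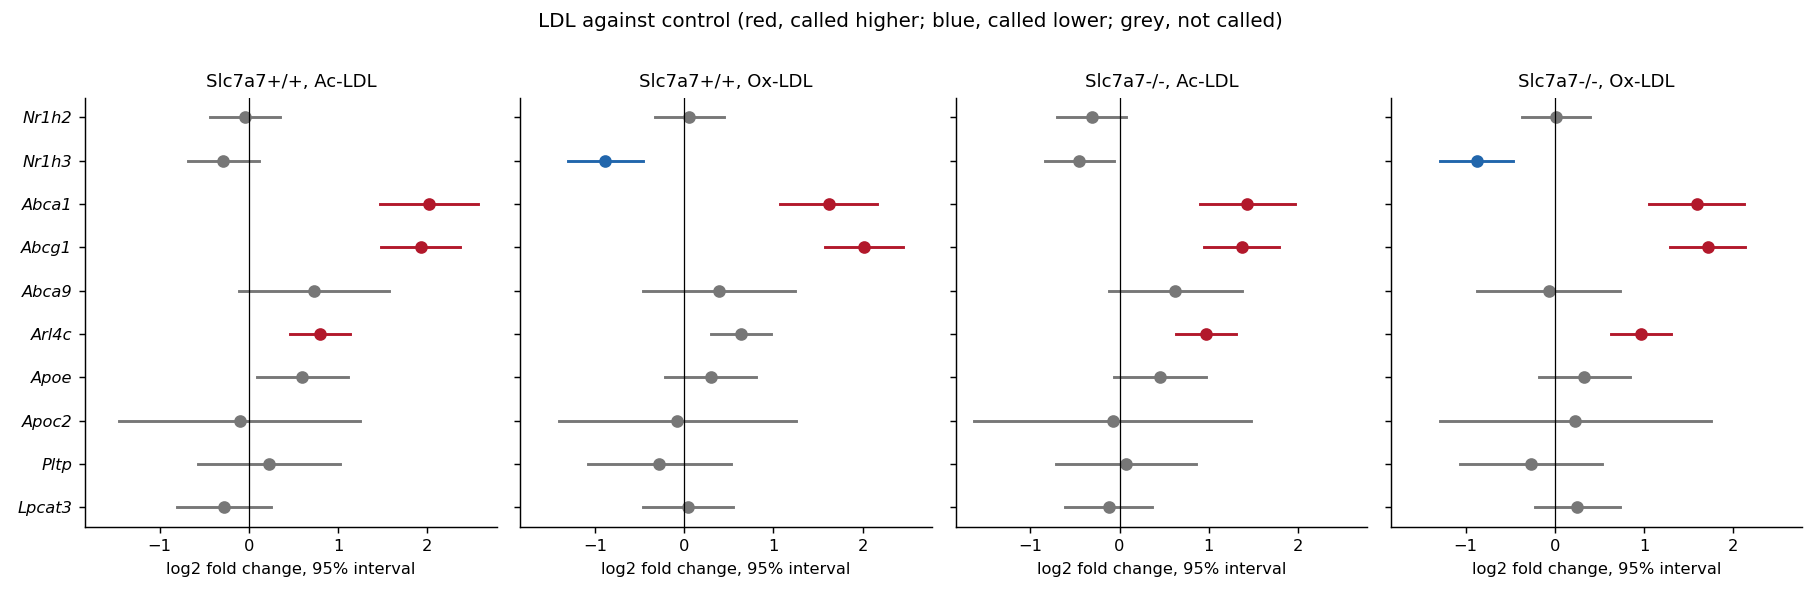
Log2 fold change of each gene with each LDL against control of the same genotype, with 95% intervals from edgeR, red where called higher, blue where called lower and grey where not called. *Abca1* and *Abcg1* lie between 1.37 and 2.02 in all 4 panels, while *Nr1h3* lies at −0.88 in both Ox-LDL panels.

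*Arl4c* (ENSMUSG00000049866, chromosome 1, 88673125 to 88702221, minus strand), a small GTPase that is known as an LXR target and promotes delivery of cholesterol to the cell surface for export, rose with less amplitude. It was 140.2, 87.9 and 150.9 CPM in wild type control cells, 223, 197 and 237 CPM after Ac-LDL and 194, 167 and 226 CPM after Ox-LDL. The knockout levels were 98.9, 105.8 and 93.5 CPM in control, 208, 179 and 196 CPM after Ac-LDL and 219.7, 178 and 186 CPM after Ox-LDL. In each genotype every LDL library was above every control library. The log2 fold change was 0.80 (SE 0.16, adjusted p = 0.0172, edgeR) with Ac-LDL in wild type cells. In Slc7a7-/- cells it was 0.97 (SE 0.16, adjusted p = 0.00205) with Ac-LDL and 0.96 (SE 0.16, adjusted p = 0.000892) with Ox-LDL.

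With Ox-LDL in wild type cells, *Arl4c* had a log2 fold change of 0.64 (SE 0.16) and missed the threshold by little (adjusted p = 0.0503, edgeR). With the mouse as a block it passed there (0.65, adjusted p = 0.000125), and DESeq2 also called it (adjusted p = 0.0256), as did 7 of 25 alternatives in all, with adjusted p from 0.000125 to 0.449. Among these were the fits without wild type control replicates 1 or 3 or Ox-LDL replicate 2 (adjusted p = 0.0329, 0.0294 and 0.0287). The call with Ac-LDL in wild type cells was lost without control replicate 2 (0.59, adjusted p = 0.139), which had the lowest control level, and without Ac-LDL replicates 1 or 3 (adjusted p = 0.0571 and 0.131).

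Among the secreted carriers, *Apoe* (ENSMUSG00000002985, chromosome 7, 19696109 to 19699188, minus strand) was higher with each LDL in every mouse, by smaller steps than the exporters. In wild type cells it was 677, 794 and 950.5 CPM in control, 1187, 1048 and 1432 CPM after Ac-LDL and 754, 1076 and 1145 CPM after Ox-LDL. Its levels in knockout cells were 543, 430.2 and 737 CPM in control, 946, 474 and 923 CPM after Ac-LDL and 617, 552 and 978 CPM after Ox-LDL. Groups did not overlap between wild type control and Ac-LDL, and overlapped in the other comparisons with control. The log2 fold change with Ac-LDL was 0.60 (SE 0.25, adjusted p = 0.555, edgeR) in wild type and 0.45 (SE 0.25, adjusted p = 0.744) in knockout cells. With the mouse as a block, *Apoe* passed with Ac-LDL in both genotypes (0.60, SE 0.11, adjusted p = 0.00107 in wild type, and 0.43, SE 0.12, adjusted p = 0.0306 in knockout). Over all alternatives its adjusted p ranged from 0.00107 to 0.879 in wild type and from 0.0306 to 1 in knockout cells, and 2 and 1 of 25 called it.

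*Pltp* (ENSMUSG00000017754, chromosome 2, 164839518 to 164857711, minus strand) had a wide spread between mice. It was 140.2, 420.2 and 389 CPM in wild type control cells, 212, 527 and 374 CPM after Ac-LDL and 141, 364 and 276 CPM after Ox-LDL. In knockout cells, it was 229, 453 and 479.6 CPM in control, 309.7, 404 and 507 CPM after Ac-LDL and 160.0, 400.3 and 398 CPM after Ox-LDL. Mouse 1 of each genotype had the lowest level in every medium. Log2 fold changes with LDL lay between −0.28 (95% interval −1.08 to 0.52) and 0.23 (−0.57 to 1.02). Within a genotype none passed, either without the mouse as a block or with it. The macrophage marker sum of mouse 1 was also lowest in each wild type group, and its part in these levels was not tested. The exons of *Pltp* share 495 bases with *Ctsa* on the opposite strand, and the strand setting of the counting is not given in the sources used here, so that reads of these bases cannot be told apart.

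*Apoc2* (ENSMUSG00000002992, chromosome 7, 19671579 to 19677941, minus strand), the activator of lipoprotein lipase, was near the limit of this depth, with 0 to 16 counts per library. It shares 78.8% of the 31-base words of its transcripts with the overlapping model *Gm44805*. The library of knockout cells with Ac-LDL of mouse 3 had 0 counts for *Apoc2* and 11 for *Gm44805*, whereas *Gm44805* had 0 counts in all but 1 of the other libraries. The log2 fold change with Ac-LDL in knockout cells was −0.08 (95% interval −1.63 to 1.47) for *Apoc2* alone and 0.68 (−0.51 to 1.88) with both models summed. A difference in *Apoc2* was not detectable at this depth.

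*Lpcat3* (ENSMUSG00000004270, chromosome 6, 124663027 to 124704418, plus strand), which inserts polyunsaturated fatty acids into phospholipids, lay between 19.7 and 40.5 CPM in the 18 libraries. Its log2 fold changes with LDL ranged from −0.28 (95% interval −0.81 to 0.25) with Ac-LDL in wild type cells to 0.25 (−0.22 to 0.73) with Ox-LDL in knockout cells, and none passed. It shares 334 exon bases with *Emg1* on the opposite strand, so that the limit given for *Pltp* applies here too.

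Counted over the members, Ac-LDL raised 3 of 10 in wild type cells (*Abca1*, *Abcg1* and *Arl4c*) and lowered 0, against 0.0651% of all genes tested called higher and 0.407% called lower. Ox-LDL raised 2 and lowered 1 (*Nr1h3*) in wild type cells, against 0.277% and 1.07%. In knockout cells, Ac-LDL raised 3 and lowered 0, against 0.0732% and 0.448%, and Ox-LDL raised 3 and lowered 1, against 0.659% and 1.66%. The median log2 fold change of the members was 0.41, 0.18, 0.26 and 0.24 in these comparisons in order, beside −0.003, 0.008, −0.005 and 0.004 over all genes tested. The comparisons of both LDLs with control share the control libraries of a genotype. The members were chosen with earlier results of these data known, which these shares do not allow for. With the mouse as a block, 4 of 10 members passed in each of the 4 comparisons, *Abca1*, *Abcg1* and *Arl4c* in all 4, joined by *Apoe* with Ac-LDL and by *Nr1h3* with Ox-LDL. The share of all genes tested then rose to 2.16% and 4.39% with Ac-LDL and Ox-LDL in wild type cells and to 2.50% and 7.18% in knockout cells.

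Since each mouse gave cells to all media, the change was also taken within each mouse. *Abca1* was higher with Ac-LDL than in control by 0.85 to 2.99 on the log2 scale in 6 of 6 mice and with Ox-LDL by 1.25 to 2.45. *Abcg1* was higher by 0.82 to 2.43 and by 1.51 to 2.58, and *Arl4c* by 0.64 to 1.15 and by 0.47 to 1.14. *Apoe* was higher by 0.14 to 0.81 with Ac-LDL and by 0.16 to 0.44 with Ox-LDL, in 6 of 6 mice each. *Nr1h3* was lower in 6 of 6 mice with either LDL, with differences from −0.57 to −0.03 and from −1.13 to −0.41. *Abca9* was higher with Ac-LDL in 6 of 6 mice, by 0.43 to 0.98, and with Ox-LDL in 5 of 6. The remaining genes, *Apoc2*, *Pltp*, *Nr1h2* and *Lpcat3*, went both ways between mice with either LDL.

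**Figure D3:**
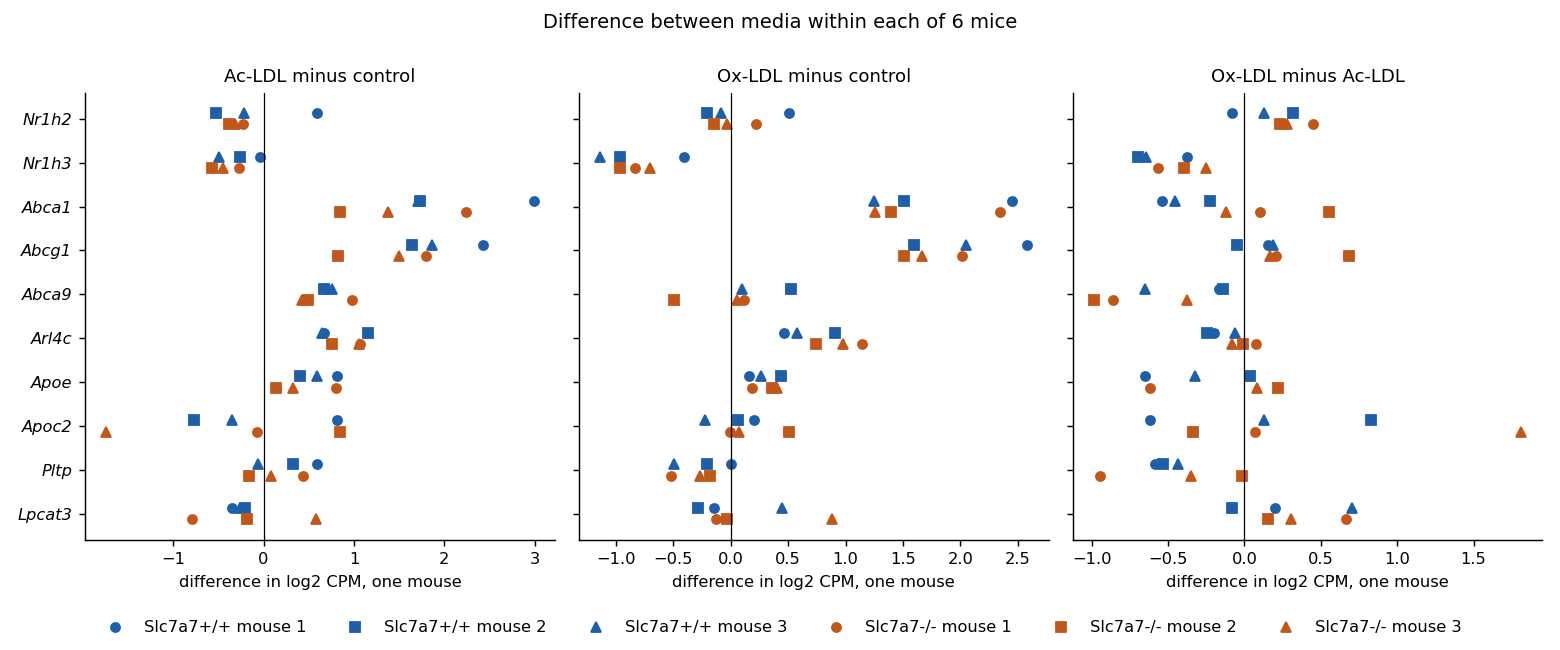
Difference in log2 CPM between media within each of the 6 mice (symbols by mouse, blue Slc7a7+/+ and orange Slc7a7-/-), for Ac-LDL minus control, Ox-LDL minus control and Ox-LDL minus Ac-LDL. All 6 points of *Abca1*, *Abcg1*, *Arl4c* and *Apoe* lie right of 0 in the panels against control, and all 6 points of *Nr1h3*, *Pltp* and *Abca9* lie left of 0 in the last panel.

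After these values were seen, the response was also fitted with the mouse as a block and averaged over the genotypes, in edgeR. With Ac-LDL, 5 members were higher (*Abca1* 1.74, *Abcg1* 1.65, *Arl4c* 0.89, *Abca9* 0.69 and *Apoe* 0.52) and 0 lower, against 2.35% of all genes tested called higher and 3.50% lower. The adjusted p was 0.00152 for *Abca9* and 2.57e-05 for *Apoe*. With Ox-LDL, 4 were higher (*Abcg1* 1.87, *Abca1* 1.62, *Arl4c* 0.81 and *Apoe* 0.31, adjusted p = 0.0075) and 2 lower (*Nr1h3* −0.87, adjusted p = 5.79e-06, and *Pltp* −0.28, adjusted p = 0.0226), against 4.39% and 6.95%. Without the block, *Apoe* and *Abca9* with Ac-LDL (adjusted p = 0.155 and 0.287) and *Apoe* and *Pltp* with Ox-LDL (0.384 and 0.69) were not called. The fall of *Pltp* with Ox-LDL was also lost without wild type control replicate 3, wild type Ox-LDL replicate 3, knockout control replicate 2 or knockout Ox-LDL replicate 1 (adjusted p from 0.0731 to 0.175). With Ac-LDL, *Nr1h3* (−0.37, adjusted p = 0.077) would pass without wild type control replicate 1 (adjusted p = 0.0344) and *Pltp* (0.18, adjusted p = 0.257) without knockout Ac-LDL replicate 2 (0.0451).

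The LDLs were also set against each other, at doses that differed. Within a genotype, 0 of 10 members passed between Ox-LDL and Ac-LDL in edgeR. The share of all genes tested that passed was 0.00814% in wild type and 0.0651% in knockout cells. Only *Nr1h3* had an unadjusted p under 0.05 in either genotype. Of all 12290 genes tested, 632 did in wild type and 682 in knockout cells. DESeq2 called 0 members as well. The log2 difference of *Abca1* was −0.40 (95% interval −0.91 to 0.11) in wild type and 0.16 (−0.35 to 0.67) in knockout cells. For *Abcg1* it was 0.09 (−0.31 to 0.49) and 0.35 (−0.05 to 0.74). *Nr1h3* had differences of −0.60 (−1.02 to −0.17, adjusted p = 0.835) and −0.43 (−0.85 to −0.004, adjusted p = 0.895).

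With the mouse as a block, *Pltp* was lower with Ox-LDL than with Ac-LDL in wild type cells (−0.51, SE 0.12, adjusted p = 0.0251, edgeR) and *Abca9* in knockout cells (−0.72, SE 0.19, adjusted p = 0.0412), against 0.732% and 1.38% of all genes tested. Averaged over genotypes in the same way, 0 members were higher and 3 lower, against 1.25% and 1.98%. These were *Pltp* (−0.45, adjusted p = 0.000583), *Nr1h3* (−0.51, adjusted p = 0.0279) and *Abca9* (−0.54, adjusted p = 0.0207), each lower in 6 of 6 mice. None of these was called without the block. Omitting wild type Ox-LDL replicate 3, knockout Ac-LDL replicate 1 or knockout Ox-LDL replicate 2 left only *Pltp* called. *Nr1h3* alone was also lost without wild type Ac-LDL replicates 1 or 2, wild type Ox-LDL replicate 2 or knockout Ox-LDL replicate 1 (adjusted p from 0.0635 to 0.0758), and *Abca9* alone without wild type Ac-LDL replicate 3 or knockout Ac-LDL replicate 2 (adjusted p = 0.117 and 0.0543). *Apoe* (−0.21, adjusted p = 0.199) passed without wild type Ox-LDL replicate 2 or knockout Ac-LDL replicate 2 (adjusted p = 0.0278 and 0.043).

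Between the genotypes, 0 of 10 members passed in any medium (edgeR), against 0.00814% of all genes tested in control, 0.0163% with Ac-LDL and 0.00814% with Ox-LDL. Only *Apoe* with Ac-LDL had an unadjusted p under 0.05, and DESeq2 called 0 members too. Of all 12290 genes tested, 491 in control, 601 with Ac-LDL and 587 with Ox-LDL were under that unadjusted p in edgeR. *Apoe* was lower in knockout cells in each medium, with log2 differences of −0.50 (95% interval −1.02 to 0.01) in control, −0.65 (−1.16 to −0.14, adjusted p = 0.99) with Ac-LDL and −0.47 (−0.98 to 0.04) with Ox-LDL. Its groups did not overlap with Ac-LDL. Neither did the neutrophil marker sums there, at 78.9 to 216 CPM in wild type and 25.6 to 64.6 CPM in knockout cells, while the macrophage sums overlapped, and their part in the difference was not tested. Averaged over media, the log2 CPM of *Apoe* was 9.73 to 10.2 in the wild type mice and 8.92 to 9.77 in the knockout mice, which overlapped (two-sided exact permutation test over 3 against 3 mice, p = 0.2, smallest possible p = 0.1). The difference with Ac-LDL was called only where no filter on low counts was used (−0.65, adjusted p = 0.0288), and over 25 alternatives its adjusted p ranged from 0.0288 to 1.

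For the exporters, the knockout minus wild type log2 difference of *Abca1* was 0.19 (95% interval −0.36 to 0.75) in control, −0.39 (−0.90 to 0.12) with Ac-LDL and 0.16 (−0.35 to 0.68) with Ox-LDL. *Abca1* with Ac-LDL lay between 488 and 514 CPM in wild type and between 305 and 469 CPM in knockout cells, with no overlap. Apart from *Apoe* with Ac-LDL, the genotypes overlapped for every other member and medium. With so few mice, the smallest possible p of the exact permutation test is 0.1 even without overlap. The share of all genes without overlap was not counted, so that no genotype effect is read from these separations. For *Abcg1* the differences were 0.37 (−0.08 to 0.83), −0.18 (−0.58 to 0.22) and 0.07 (−0.32 to 0.47). For *Arl4c* the difference in control cells was −0.34 (−0.69 to 0.01). Because the wild type libraries carry the lower numbers, library number and genotype cannot be told apart. The labels do not say what the numbers record.

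**Figure D4:**
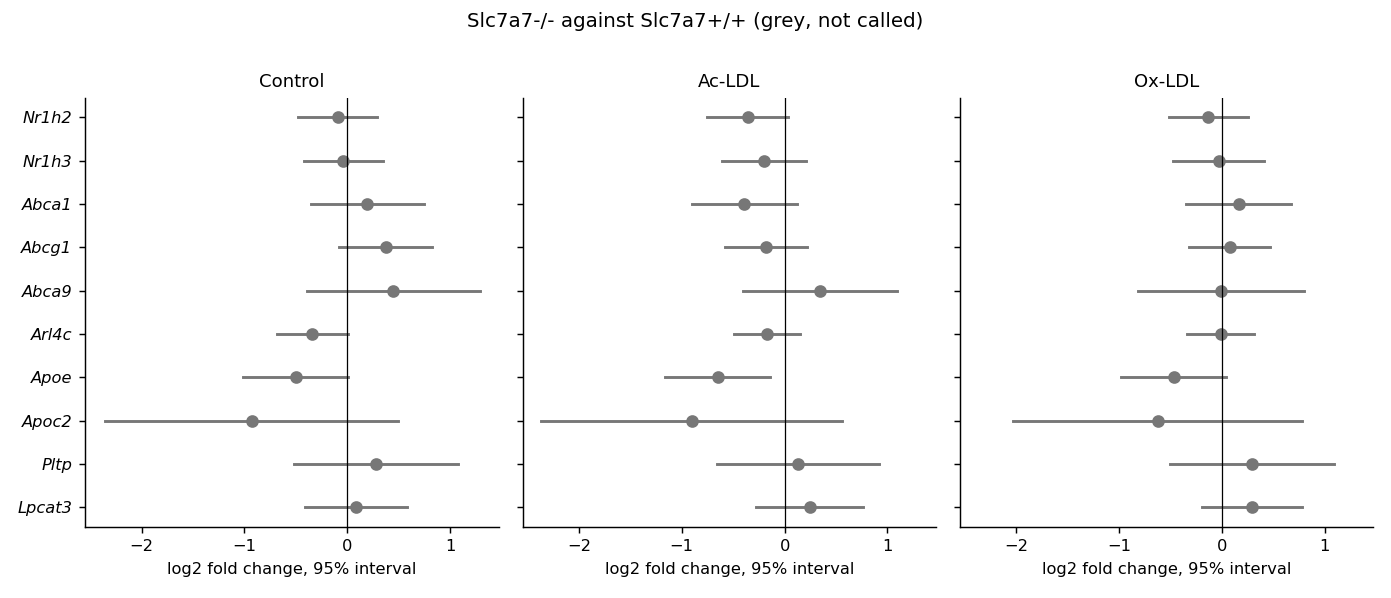
Log2 difference between Slc7a7-/- and Slc7a7+/+ cells in each medium for the 10 genes, with 95% intervals from edgeR (grey, not called). *Apoe* lies left of 0 in all 3 panels, and only its Ac-LDL interval leaves out 0.

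Whether the LDL response depended on genotype was tested as an interaction. For Ac-LDL, 0 of 10 members passed (0% of all genes tested), and for Ox-LDL also 0 of 10 (0%). Without the block, 0 members had an unadjusted p under 0.05 for either LDL. Over all genes, edgeR gave 327 and 338 genes at an unadjusted p under 0.05, and DESeq2 called 1 and 0 genes. The log2 difference in the Ac-LDL response, knockout minus wild type, was −0.59 (95% interval −1.34 to 0.16) for *Abca1* and −0.56 (−1.16 to 0.05) for *Abcg1*. To Ox-LDL the differences were −0.03 (−0.78 to 0.72) and −0.30 (−0.90 to 0.30). With the mouse as a block, the Ac-LDL differences were −0.59 (−1.09 to −0.10) for *Abca1* and −0.56 (−0.98 to −0.14) for *Abcg1*. Both intervals left out 0, with an unadjusted p under 0.05. The counts of 327 and 338 genes are from the fit without the block. The share of all genes at that unadjusted p with the block is not given here, so that these values have no background beside them. Neither passed after adjustment over all genes tested (adjusted p = 1 for both, edgeR). The blocked Ox-LDL differences were −0.02 (−0.51 to 0.48) and −0.30 (−0.72 to 0.11).

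Other genes of the pathway went more than one way. Of 15 further known LXR targets, 10 were tested, and in each of the 4 comparisons with control 1 rose (*Mylip*) and 1 fell (*Fasn*). *Mylip* encodes the ubiquitin ligase IDOL, which marks the LDL receptor for degradation, and was 50.8 ± 9.25 CPM in wild type control cells, 95.1 ± 8.68 CPM after Ac-LDL and 119 ± 13.2 CPM after Ox-LDL (mean ± SD, n = 3). Its log2 fold changes were 0.89 and 1.21 in wild type and 0.82 and 1.15 in knockout cells (adjusted p from 2.94e-05 to 0.0066, edgeR). *Fasn*, the fatty acid synthase gene, fell, with log2 fold changes of −1.04 and −1.31 in wild type and of −0.99 and −1.22 in knockout cells (adjusted p from 0.000133 to 0.00376). *Srebf1* and *Acsl3*, which share the promoter motif with *Abca1* and *Fasn*, had log2 fold changes from −0.52 to −0.32 and from −0.65 to −0.36 and did not pass.

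Of 9 tested RXR partners and cofactors, 0 passed in any of the 4 comparisons. The smallest unadjusted p values among them belonged to *Ncor1* (0.22, SE 0.14, with Ox-LDL in knockout cells), *Ncoa3* (−0.20, SE 0.15, with Ox-LDL in wild type cells) and *Ncoa2* (0.16, SE 0.13, in the same comparison), each with an unadjusted p above 0.05. Among the tested genes that make or break down sterol ligands of LXR, 0 rose. *Sc5d*, a desaturase of the late steps of cholesterol synthesis, fell with Ox-LDL in wild type cells (−1.22, adjusted p = 0.0195) and in response to both in knockout cells (−1.26 and −2.04).

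Of 12 tested genes of intracellular cholesterol handling, 3, 3, 2 and 3 fell in the 4 comparisons (wild type, then knockout, with Ac-LDL first), and 0 rose. *Stard4*, a carrier of cholesterol between membranes, and *Cav1*, the coat protein of caveolae, fell in all 4, with log2 fold changes from −1.76 to −1.45 and from −1.71 to −1.12. *Scarb1*, the HDL receptor gene, fell with both LDLs in wild type cells (−0.69 and −0.87) and with Ox-LDL in knockout cells (−0.68). Of 8 tested transporters of the ABCA and ABCG families beside the members, 0 passed. The smallest unadjusted p values belonged to *Abca8b* with Ox-LDL (0.99 in knockout and 1.03 in wild type cells, adjusted p = 0.191 and 0.288), the only 2 values of this list with an unadjusted p under 0.05, followed by *Abca7* (−0.36) and *Abca3* (−0.27) with Ac-LDL in wild type cells.

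Across the 6 group means, the patterns most like that of *Abca1* among 6745 genes with a mean of at least 20 CPM included those of *Tecpr2*, *Spdl1*, *Mdc1* and *Arap2*, with Pearson r from 0.984 to 0.989. *Arap2* had log2 fold changes from edgeR of 1.49 and 1.30 with Ac-LDL and Ox-LDL in wild type and of 1.06 and 1.06 in knockout macrophages. Those of *Tecpr2*, *Spdl1* and *Mdc1* ranged from 0.27 to 0.46. The patterns most like that of *Abcg1* were those of *Prkdc*, *Sclt1*, *Tcf4*, *Spata6* and *Slc10a7* (r from 0.987 to 0.992). Their log2 fold changes ranged from 0.20 to 0.60. The r values describe 6 means of the same 18 libraries.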

How the data were processed

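RNA-Seq of bone marrow-derived macrophages of 6 mice was used, 18 libraries in all. Genotype, treatment and mouse were taken from the labels, and doses, times and ages from the study's methods. The authors deposited estimated counts of each gene from Salmon, with no normalization. The authors prepared stranded total RNA libraries, trimmed reads with Trim Galore and aligned them with STAR to mm10, with Ensembl genes. Versions of STAR and Salmon and the strand setting are not given in the sources used here. All columns were mapped to samples by name, with 0 columns of other samples.

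Counts were rounded and filtered by filterByExpr (minimum count 2, minimum total count 10), which left 12290 genes. All 6 groups were fitted together with edgeR 4.0.16 in R 4.3.3 (TMM scaling, quasi-likelihood test, 12 residual degrees of freedom). A gene was called at a Benjamini-Hochberg adjusted p under 0.05, the adjustment covering every gene tested. Log2 CPM have a prior count of 2. Likeness was Pearson's r of group means of log2 CPM. The members, pathway lists, markers and tests were chosen with earlier results of these data known. The rule named all members, every gene of the pathway lists that passed in a comparison of an LDL with control, up to 3 with the smallest p where none did, and the 5 genes most like *Abca1* and *Abcg1*. Some genes named by this rule are not reported here.

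Libraries of the same mouse are paired by the animal's number in the labels. Over 8608 genes, the deviations of such libraries from their group means correlated with r between 0.0931 and 0.482 (median 0.282), and 17 of 18 pairs exceeded 0.1. The block was a mouse term in edgeR and, between genotypes, a random effect in limma 3.58.1 (voom, within-mouse correlation 0.176). Alternatives were DESeq2 1.42.0, scaling by library size alone or RLE, the default filter or none, a fit of only the groups compared, the mouse block and each library left out in turn. The fits averaged over genotypes and the sum of *Apoc2* and *Gm44805* were added after seeing the data. The edgeR fits were tested on simulated data. Replicates of each group differed by more than counting error in a chi-square test and were kept as separate samples.

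Coordinates are from GENCODE M21 (GRCm38, the assembly of mm10) and promoters from the RefSeq table of GRCm38.p6, in which 9 of the 10 members had a window. Sequence of proteins was not used here. Figures were drawn with matplotlib 3.10.9.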

Additional observations from a re-analysis of the deposited data

How the results depend on the processing

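Of 27 called values of the members, 610 of 647 recomputed values kept call and direction, 37 lost the call and 0 reversed. Of 113 values not called, 18 of 2793 recomputed values were called, in the same direction, and 131 changed sign without being called. Both totals count fits without a library outside the groups compared, which bears on a comparison only through the shared fit. They also include the averaged fits added after seeing the data. The totals therefore say little about how far a single call depends on single mice. The number of members called changed by more than 1.5 times, or from or to 0, in these cases. With the mouse as replicate block, 1 member passed between Ox-LDL and Ac-LDL in each genotype in place of 0, and with no filter 1 member passed between genotypes with Ac-LDL in place of 0. In the fits averaged over genotypes, no replicate block gave 3 members in place of 5 with Ac-LDL and 0 in place of 3 between the LDLs, where leaving out each library gave 1 to 3. The block changed no other count of called members by more than 1.5 times, and the single calls that it added stand beside those results. The cause was not tested.

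In fits of only the groups compared, *Arl4c* with Ac-LDL (adjusted p = 0.241) and *Nr1h3* with Ox-LDL (0.179) lost the call in wild type cells, and with library size alone the averaged fall of *Pltp* with Ox-LDL did (0.0625). Over all genes, 58, 165, 64 and 285 genes were called in wild type with Ac-LDL and Ox-LDL and in knockout with Ac-LDL and Ox-LDL. These became 265, 539, 307 and 882 with the block, 176, 337, 188 and 491 with no filter and 32, 62, 198 and 751 with only the groups compared. Between the LDLs, 1 and 8 genes became 90 and 169 with the block, 73 and 91 with no filter, 11 and 17 with DESeq2 and 1 and 61 with only the groups compared. Between genotypes, 1, 2 and 1 genes became 28, 45 and 34 with no filter, 3, 6 and 1 with DESeq2, 0, 4 and 0 with only the groups compared and 2, 2 and 1 with the block, and the interactions, with 0 and 0, became 18 and 15 with no filter and 5 and 0 with the block. Library size alone gave 15 of 61 higher calls in place of 9 of 64 in knockout cells with Ac-LDL, 108 of 274 in place of 81 of 285 with Ox-LDL, and in the averaged fits 440 of 760 in place of 289 of 719 and 739 of 1457 in place of 539 of 1393. No replicate block left 246, 662 and 48 genes in the averaged fits in place of 719, 1393 and 397. Depth limits *Apoc2* most.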
